A study of Mus musculus with 14 samples.

Results

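The miR-183/96/182 cluster consists of 3 microRNAs (miRNAs) that are cut from hairpins of neighbouring genes. Its members were chosen as the rows of the deposited table whose number is that of the TaqMan assay for miR-183 ('2269'), miR-96 ('186') or miR-182 ('2599'), which gave 3 of the 516 rows. The measurements came from a study of lung development in ICR mice, an outbred strain, in which total RNA of pooled whole lungs was profiled in 2 samples at each of 7 time points. Before birth these were days 12, 14, 16 and 18 of gestation (E12 to E18, with the day of the plug as day 0), and after birth days 2 and 10 (P2 and P10) and adult, whose age the labels do not give. The labels give no treatment or genotype difference between groups and enter every sample as female, embryos included. Nothing in them tells whether a pair of samples came from separate pools of animals, and p-values therefore measure only how far these samples spread, which may be technical. Each sample was run on 2 array cards, and in all 14 layouts of card A the assays mmu-miR-183, mmu-miR-96 and mmu-miR-182 were listed. The files do not pair these names with row numbers, and the pairing used here is the numbering given above.

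MiRNAs guide a silencing complex to messenger RNAs, chiefly through the seed, bases 2 to 8 from the 5′ end. The miR-183 family is best known from sensory organs, where the 3 miRNAs are made together in hair cells and photoreceptors, and a change in the seed of miR-96 causes hearing loss in mice. In the lung they are known mainly from tumours, in which their levels are often raised. In RefSeq (GRCm38.p6) the 3 hairpins lie on the minus strand of chromosome 6 within 3820 bases. Mir183 is at chr6:30169668-30169737, Mir96 at chr6:30169446-30169551 and Mir182 at chr6:30165918-30165992. All lie inside the long non-coding RNA gene Mirc35hg (chr6:30158640-30174125). Between Mir183 and Mir96 there are 116 bases, and between Mir96 and Mir182 there are 3453.

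The mature sequences are shown because the seeds define the family and because the likeness of its members bears on how an assay tells them apart. Capitals mark the seed. A card name without an arm was taken as the 5p miRNA, which is an assumption.
mmu-miR-183-5p: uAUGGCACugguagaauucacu
mmu-miR-96-5p: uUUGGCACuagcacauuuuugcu
mmu-miR-182-5p: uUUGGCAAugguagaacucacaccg
The 3 seeds differ from one another at 1 or 2 positions. Counted from the 5′ end, with the first-named miRNA's base first, miR-183 and miR-96 differ in the seed by A2U, miR-96 and miR-182 by C8A, and miR-183 and miR-182 by A2U and C8A. Outside the seed miR-183 and miR-182 stay alike, with the same base at 18 of 22 positions in all, against 13 of 22 for miR-183 and miR-96 and 12 of 23 for miR-96 and miR-182. Among the 1679 mature mouse miRNAs of the table, the seed of miR-96 was shared by 1 other, mmu-miR-1271-5p, and those of miR-183 and miR-182 by no other. How far each assay also reads its relatives was not tested.

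Levels were given as ΔCT, the threshold cycle (CT) of the miRNA minus that of the small nuclear RNA U6, the internal control. The lower the ΔCT, the higher the level, with a factor of 2 per cycle where each cycle doubles the product. A log2 change below is minus the difference in ΔCT, so that a negative change is a fall. Most values lay on whole-cycle steps with a decimal shared within a sample, and the decimals of the 3 members lay within 0.041 cycles of each other in each sample. A difference of 1 cycle between single samples was therefore the smallest that could be read. The 14 samples had 272 to 335 measured rows. A blank cell was treated as not measured: miR-183 was measured in 14 samples, and miR-96 and miR-182 in 12 each. In bulk lung, fewer cells that make a miRNA and less of it per cell cannot be told apart. No table pairs row numbers with the names of miRNAs that mark cell types, so that such markers could not be checked.

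Over the time course miR-183 and miR-182 changed and miR-96 did not pass the test. Against U6, miR-182 had its highest level at E12 and its lowest at P10, a span of 2.48 on the log2 scale between time-point means (5.56-fold). The means of miR-183 at E18 (11.59) and E12 (11.61) were the highest in level and nearly equal, and that at P2 was the lowest, a span of 2.14 (4.40-fold). Against the average of the array in place of U6, E12 was the highest for miR-183. In limma's moderated F test over all time points the adjusted p was 0.00482 for miR-182, 0.0211 for miR-183 and 0.622 for miR-96. The test called 74.9% of all 263 assays that could be tested in full, a share no smaller than the 2 called members of 3. With each blank set to one common low value in place of not measured, the adjusted p of miR-182 was 0.436, and with the lowest level of its own sample it was 0.392. Without P2 replicate 1 that of miR-183 was 0.0731.

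MiR-182 was the most abundant member by ΔCT in each sample in which it was measured. Its ΔCT was 9.02 and 8.15 at E12, 9.24 and 9.13 at E14, 9.09 in the measured sample of E16, and 9.06 and 9.11 at E18. After birth it was 11.18 and 10.26 at P2, 11.06 in each P10 sample and 10.14 in the measured adult sample. The 7 measured embryonic samples thus lay between 8.15 and 9.24 and the 5 measured postnatal samples between 10.14 and 11.18, with no overlap. Of all 263 assays, 14.4% had their postnatal samples lower without overlap in this way. The blanks were E16 replicate 2 and adult replicate 2, whose partner samples were at 9.09 and 10.14, far from the highest ΔCT deposited, 19.85. Within a sample, 10.2% (E12 replicate 2) to 43.1% (P10 replicate 2) of the measured assays had a lower ΔCT than miR-182.

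MiR-183 was measured throughout. Its ΔCT was 12.03 and 11.19 at E12, 12.22 and 12.13 at E14, 12.07 and 12.25 at E16, and 11.07 and 12.11 at E18. It was 14.21 and 13.25 at P2, 13.07 in each P10 sample, while the adult samples read 12.12 and 13.16. The 8 embryonic samples lay between 11.07 and 12.25 and the 6 postnatal ones between 12.12 and 14.21. They overlapped only through adult replicate 1. Against U6 the order of mean levels from high to low was E18, E12, E16, E14, adult, P10 and P2. No gap between neighbours in that order exceeded the larger of their SDs, and the largest SD was 0.74 cycles (adult, n = 2). In a sample 42.5% to 68.8% of the measured assays had a lower ΔCT, so that miR-183 stood near the middle of the array.

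MiR-96 was the scarcest member by ΔCT. It read 17.03 and 17.19 at E12, 18.23 and 16.16 at E14, 17.12 and 16.25 at E16, and 15.09 and 17.09 at E18. It read 18.18 and 17.28 at P2, 17.07 in the measured sample of P10 and 17.19 in the measured adult sample. Replicates differed by about 2 cycles at E14 and E18 (SD 1.46 and 1.42), and the embryonic range of 15.09 to 18.23 took in the postnatal range of 17.07 to 18.18. Its blanks were P10 replicate 1 and adult replicate 1. In its samples 84.3% to 97.5% of the measured assays had a lower ΔCT, so that it lay near the low end of what the array read. Levels of different assays also carry the efficiency of each assay, which was not tested.

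**Figure D1:**
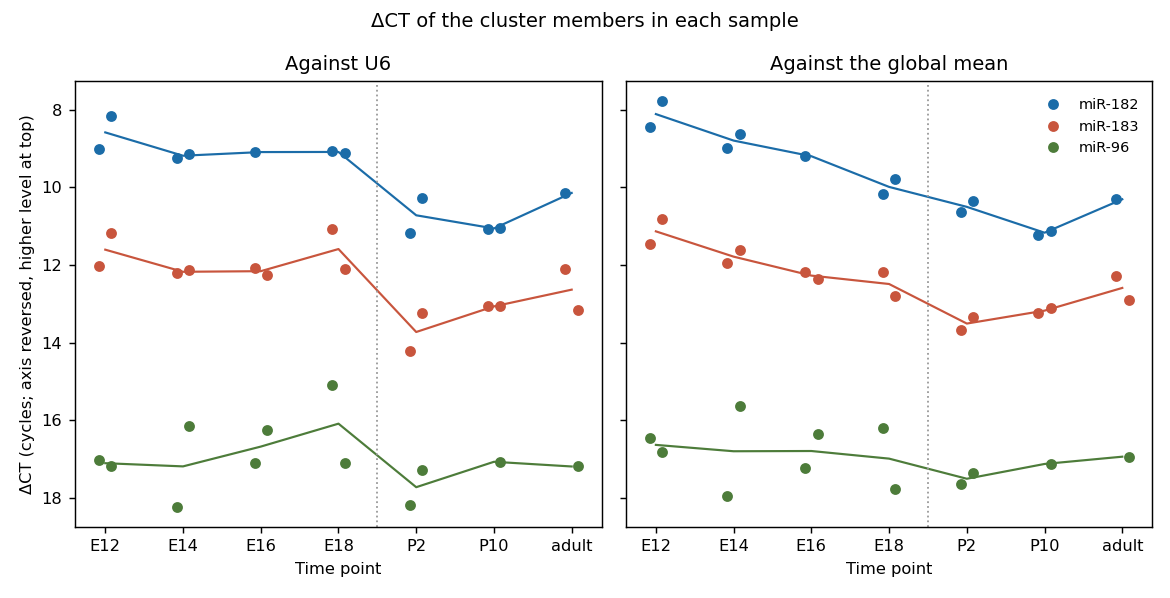
ΔCT of miR-182, miR-183 and miR-96 in each sample, in cycles against U6 (left) and against the average over the 219 assays with no blank (right). The vertical axis is reversed so that a higher level is at the top, points are samples, lines join time-point means and the dotted line marks birth. Against U6 miR-182 lies between 8.15 and 9.24 before birth and between 10.14 and 11.18 after it, while against the array mean it already descends before birth.

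The comparison of postnatal with embryonic time points asked whether levels differed on either side of birth. MiR-182 was lower after birth by 3.15-fold (log2 change -1.65, SE 0.26, limma adjusted p = 5.40e-04) and miR-183 by 2.40-fold (log2 change -1.26, SE 0.27, limma adjusted p = 0.00213). For miR-96 the log2 change was -0.56 (SE 0.52, 95% interval -1.74 to 0.61, limma adjusted p = 0.380). The same test called 31.9% of all 263 assays lower after birth, and their median log2 change was 0.02. A lower change than that of miR-182 was found for 17.9% of the assays, and a lower one than that of miR-183 for 22.1%. The fall of miR-183 had an adjusted p between 0.00121 and 0.00758 when each sample was left out in turn. That of miR-182 rests on treating its 2 blanks as not measured: with the common low value its adjusted p was 0.399, and with the lowest level of each sample 0.379. For miR-96, whose blanks were both postnatal, the log2 change was -1.47 with the common low value (limma adjusted p = 0.0813). With the lowest level of each sample it was -1.11 (limma adjusted p = 0.0948).

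Against U6, and with blanks as not measured, the step from E18 to P2 held the largest change of all steps between neighbouring time points for each member. MiR-183 fell 4.40-fold (log2 change -2.14, SE 0.50, limma adjusted p = 0.0148) and miR-182 fell 3.10-fold (log2 change -1.63, SE 0.43, limma adjusted p = 0.0230). For miR-96 the log2 change was -1.64 (SE 0.81, 95% interval -3.48 to 0.21, limma adjusted p = 0.129). Across the array 34.1% of 308 assays were called lower at this step, with a median log2 change of -1.13. A lower change than that of miR-183 was found for 10.1% of assays, against 23.1% for miR-96 and 25.3% for miR-182. Without E18 replicate 1, in which miR-183 was at its highest, or without P2 replicate 1, in which it was at its lowest, the adjusted p of miR-183 was 0.116 and 0.131. That of miR-182 was 0.116 without E18 replicate 1, 0.0537 without E18 replicate 2 and 0.147 without P2 replicate 1, and with the common low value it was 0.757.

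**Figure D2:**
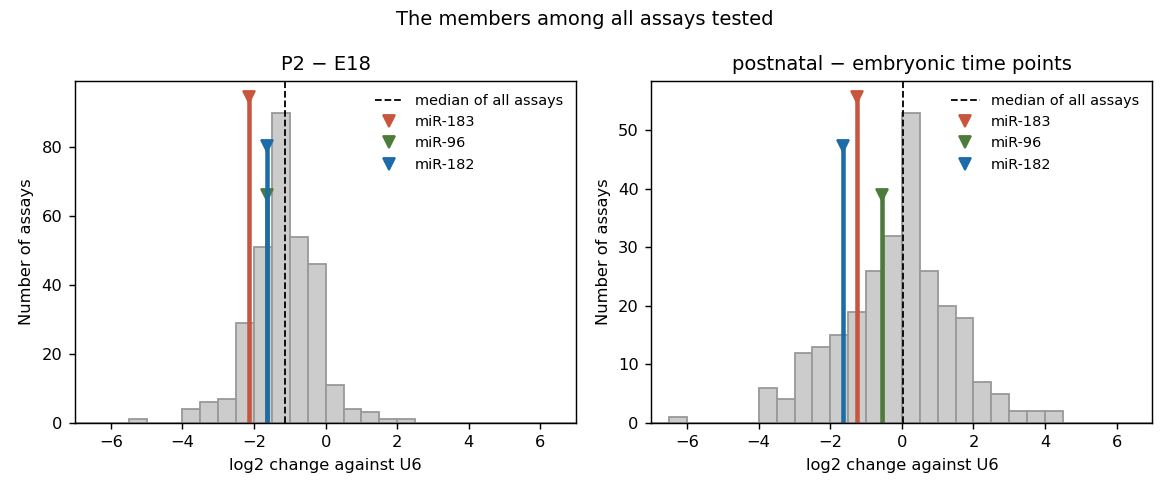
Distribution of log2 changes against U6 over all assays tested, for P2 against E18 (left, 308 assays) and for postnatal against embryonic time points (right, 263 assays), as number of assays per bin of log2 change. The dashed line is the median of all assays, and markers give the members. From E18 to P2 the median lies at -1.13. For postnatal against embryonic time points it is 0.02, and there miR-182 and miR-183 lie at -1.65 and -1.26.

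Since so many assays fell together between E18 and P2, the members were also set against the average over the 219 assays with no blank (the global mean, over both cards) in place of U6. Each sample was shifted so that this average was the same in all samples. The mean ΔCT of those assays was 9.94 and 10.37 at E18, lower than in any other sample, and 11.59 and 10.96 at P2. The shift removes the average change of those assays by construction, and the median log2 change of all assays from E18 to P2 was accordingly -0.01. The log2 change was then -1.02 for miR-183 (limma adjusted p = 0.183), -0.51 for miR-182 (adjusted p = 0.482) and -0.52 for miR-96 (adjusted p = 0.693), and 3.90% of all assays were called. The mean of the postnatal time points stayed lower than that of the embryonic ones for the 2 members that passed against U6. This log2 change was -1.64 for miR-182 (SE 0.24, limma adjusted p = 8.82e-05) and -1.17 for miR-183 (SE 0.21, adjusted p = 2.59e-04), with 31.9% of assays called lower. It does not place the change at birth. On this scale too, the calls of miR-182 rest on treating its blanks as not measured. Which scale follows the amount per cell was not tested.

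Against the global mean a part of the change lay before birth. The ΔCT of miR-182 was 8.44 and 7.78 at E12, 8.98 and 8.61 at E14, 9.20 at E16, 10.18 and 9.80 at E18, 10.65 and 10.36 at P2, 11.22 and 11.11 at P10, and 10.31 in the measured adult sample. The time-point means thus moved down in level from each time point to the next until P10, and the adult sample stood above P10. No single step of miR-182 was called on this scale (limma adjusted p between 0.245 and 0.596), and E16 had 1 measured sample. No measured postnatal sample overlapped an embryonic one, which on this scale held for 9.13% of the 263 assays. But the gap was narrow, between 10.18 and 10.31, and smaller than the 1 cycle that could be read between single samples. From E12 to E18 miR-182 fell 3.67-fold (log2 change -1.88, SE 0.39, limma adjusted p = 0.00369), where 22.6% of 319 assays were called lower.

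MiR-183 on the global mean scale went from 11.45 and 10.81 at E12 to 11.96 and 11.62 at E14, 12.18 and 12.37 at E16, and 12.19 and 12.79 at E18. It was 13.67 and 13.35 at P2, 13.23 and 13.12 at P10, while the adult samples read 12.28 and 12.91. Each E18 sample was thus lower in level than each E12 sample, and P2 held the lowest levels. From E12 to E18 it fell 2.56-fold (log2 change -1.36, SE 0.39, limma adjusted p = 0.0159), and 22.6% of 319 assays were called lower. For miR-96 the log2 change was -0.35 (adjusted p = 0.712). Over the whole course the F test called 74.1% of assays on this scale, with an adjusted p of 3.85e-04 for miR-182, 0.00172 for miR-183 and 0.921 for miR-96.

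Against U6 the same interval before birth gave another picture. From E12 to E18 the log2 change was 0.02 for miR-183 (SE 0.50, 95% interval -1.10 to 1.13, limma adjusted p = 0.999), -0.50 for miR-182 (95% interval -1.48 to 0.47, adjusted p = 0.391) and 1.02 for miR-96 (95% interval -0.83 to 2.87, adjusted p = 0.362). None of the 3 was called, while 37.3% of 319 assays were, 118 of them higher and 1 lower, and the median log2 change of all assays was 0.99. Whether a fall of miR-183 or of miR-182 before birth was called thus depended on the reference.

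Set against E12, the adult gave the net change. MiR-182 was 2.95-fold lower in the adult (log2 change -1.56, SE 0.53, limma adjusted p = 0.0340), with 21.4% of 285 assays called lower. This call rests on 1 adult sample, and its adjusted p was 0.160 with the common low value for blanks, 0.124 without E12 replicate 2, and 0.0504 without P10 replicate 1 or without P10 replicate 2. For miR-183 the log2 change was -1.03 (95% interval -2.14 to 0.08, limma adjusted p = 0.112), and for miR-96 it was -0.08 (95% interval -2.35 to 2.18, adjusted p = 0.954). Against the global mean both miR-182 (log2 change -2.20, adjusted p = 0.00196) and miR-183 (-1.46, adjusted p = 0.00577) were called lower, with 29.1% of all assays.

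From E18 to the adult the log2 change of the members ran from -1.10 for miR-96 to -1.05 for miR-183, and none was called, against 33.9% of 289 assays. Against the global mean the same changes were 0.050 for miR-96, -0.10 for miR-183 and -0.32 for miR-182, so that their size depended on the reference. MiR-96 and miR-182 had 1 measured adult sample each. Against U6 with the common low value for blanks, their changes from E18 to the adult were -2.43 and -5.91. At the remaining steps none of the 3 was called either. The share of all assays called was 0.315% from E12 to E14, 0.619% from E14 to E16, 10.1% from E16 to E18, 16.4% between P2 and P10, and 11.4% between P10 and adult. The largest of these changes for a member was that of miR-182 from P10 to the adult, a log2 change of 0.92 (95% interval -0.28 to 2.11, limma adjusted p = 0.296). From P2 to P10 the change was 0.66 for miR-183 and -0.34 for miR-182.

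**Figure D3:**
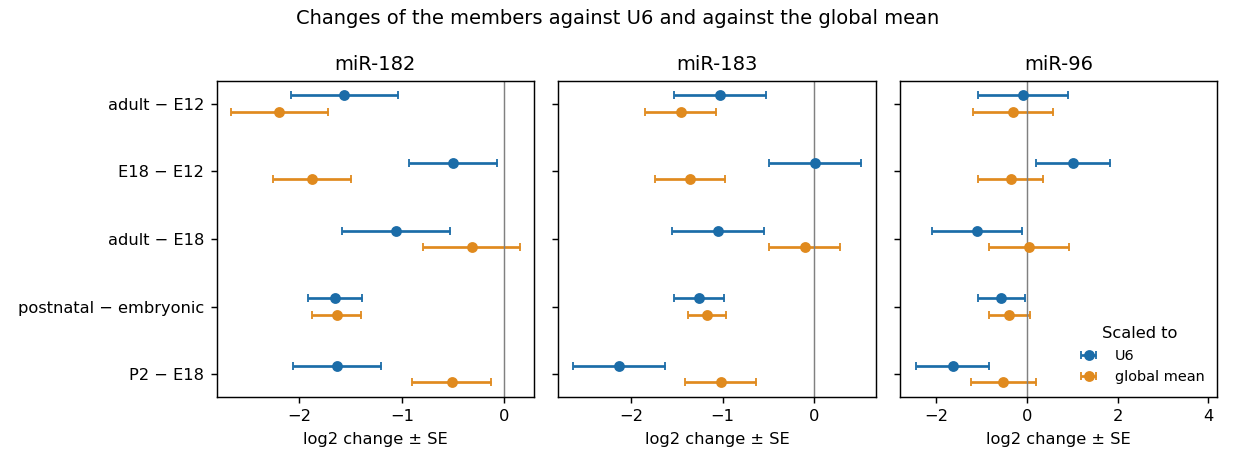
Log2 change of each member in 5 comparisons, with U6 (blue) and with the global mean (orange) as reference. Points are fitted changes, bars are 1 SE from the limma fit and the vertical line marks no change. The postnatal against embryonic change is nearly the same with either reference, at -1.65 and -1.64 for miR-182, while the change from E12 to E18 and that from E18 to P2 trade size between them.

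Differences between members within a sample do not depend on U6 or any other reference, so they show whether the members kept pace. MiR-183 minus miR-182 was close to 3 cycles in both E12 and both E14 samples, in E16 replicate 1, in E18 replicate 2 and in both P2 samples. It was close to 2 cycles in E18 replicate 1 (2.01), in both P10 samples (2.01 and 2.01) and in adult replicate 1 (1.97). The smaller gap thus did not follow age in order, since E18 replicate 1 held it and both P2 samples did not. An exact permutation test of the F statistic ran over all 62370 divisions of the 12 samples into groups of these sizes. By this permutation test the difference between time points had p = 0.0871, or 0.261 after adjustment over the 3 pairs. The test also used the decimals of the differences, which order divisions that tie in whole cycles.

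MiR-96 minus miR-182 ran from 6.02 in P10 replicate 2 to 9.04 in E12 replicate 2 (n = 10), with time-point means between 6.02 and 8.52 (exact permutation p = 0.429, adjusted p = 0.618). MiR-96 minus miR-183 ran from 3.97 to 6.01 (n = 12) and was close to 4 cycles in each of the 4 postnatal samples in which both were measured (exact permutation p = 0.618, adjusted p = 0.618). In the embryonic samples the same difference varied between 4 and 6 whole cycles, also between replicates. No pair was shown to part over the time course, which does not show that the members kept pace.

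**Figure D4:**
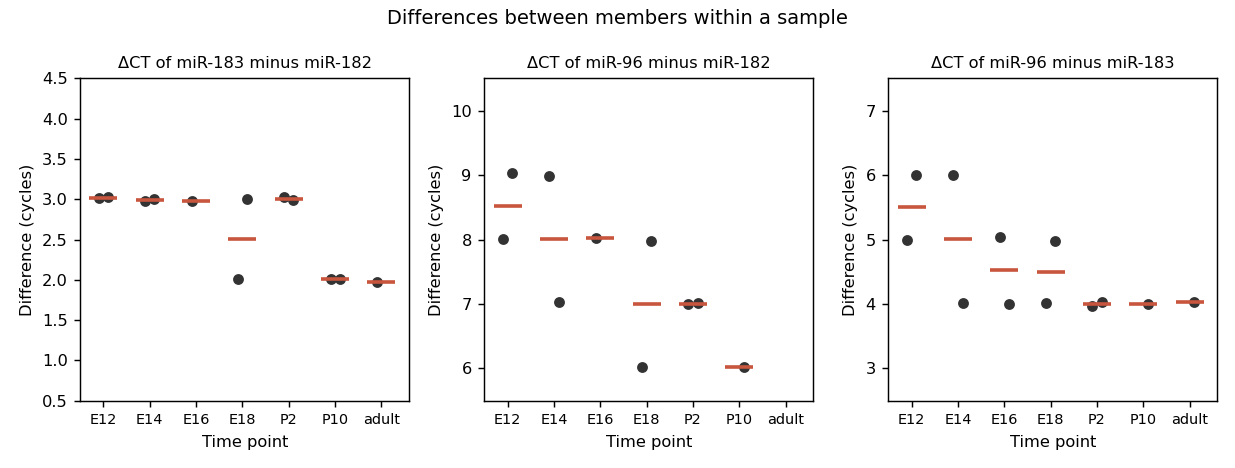
Difference in ΔCT between members within each sample, in cycles, for the 3 pairs. Points are samples and red bars are time-point means, and a larger difference means that the second-named member was the more abundant by that many cycles. MiR-183 minus miR-182 takes values near 3 or near 2 cycles, with the lower value in 1 E18 sample, both P10 samples and the measured adult sample.

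The day on which a run file was saved could be read for each card, and the steps were set side by side within a day where the days allowed. E18 replicate 2 and P2 replicate 1 shared a day for card A. Between these 2 samples the log2 change was -2.10 for miR-183, -2.06 for miR-182 and -1.09 for miR-96, against an average of -1.22 over the assays with no blank. At several other steps the values within a day lay further from those of all samples. For miR-183 the change within a day was 1.09 against 0.57 from E16 to E18, 0.18 against 0.66 from P2 to P10, and 0.95 against 0.43 from P10 to the adult. For miR-182 it was -0.80 against -0.34 from P2 to P10. For miR-96 it was -1.12 against -0.082 from E12 to E14 and 1.59 against 0.59 from E16 to E18. These values rest on 2 or 3 samples each and have no test. E14 and E16 shared no day, so that there the day and the time point cannot be told apart.

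Of the 218 other assays measured in all 14 samples, the one whose centred profile lay closest to that of miR-183, the member without a blank, was assay 2270, with a root mean square difference of 0.465 cycles over 14 samples, against a median of 1.14. Its ΔCT was 11.00 and 11.03 at E12 and 11.24 and 11.86 at E18, then 13.74 and 13.10 at P2 and 12.23 and 12.11 in the adult. As with miR-183, the P2 samples were the lowest in level. Its log2 change was -1.87 from E18 to P2 and -1.31 for postnatal against embryonic time points. The next closest was assay 387 (0.50 cycles), whose log2 change from E18 to P2 was -1.13, close to the median of all assays. For postnatal against embryonic time points its log2 change was -0.40. Both were picked for their likeness to miR-183 in these samples, so that their changes are a description, with no test. The files give neither number a name.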

How the data were processed

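MiRNA levels were measured in 14 samples by quantitative PCR on TaqMan cards A and B. The authors subtracted the CT of U6 from that of each miRNA and deposited the ΔCT, which their methods treat as a log2 value. The methods describe setting undetermined reactions to an upper limit, but 2888 of 7224 deposited cells are blank. The run files hold plate layouts, a measurement of another kind, and the deposited layouts were used only for assay names and save days.

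Expression was minus ΔCT. Values below 0.001 (5, all of E14 replicate 2) were taken as missing. An assay was kept if some time point had both of its samples measured (350), and a comparison was tested where its time points were measured. A linear model with 1 mean per time point was fitted to each assay over all 14 samples, with variances moderated by limma 3.58.1 in R 4.3.3. Tests were two-sided, adjusted by Benjamini-Hochberg within a comparison over all assays tested, and called below 0.05. The procedure was tested on simulated data. Blanks were first planned at a common floor (the highest deposited ΔCT, 19.85) with not measured as the alternative. The order was exchanged after the members' blanks had been seen, and this decides the calls of miR-182. Alternatives were the floors, the global mean, other filters and variance models, the replicate number or save day as a block, and leaving out each sample. The members were named by rule, with the nearest complete profiles by root mean square difference. Members and lists were chosen with earlier results of these data known.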

Additional observations from a re-analysis of the deposited data

How the results depend on the processing

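Values are log2 changes unless given as an adjusted p of the F test. With blanks at the common floor, miR-182 was no longer called: adult against E12 -6.41, postnatal against embryonic -1.93, P2 against E18 -1.63, F test p 0.436, while E16 against E14 was -5.29 and adult against P10 -3.94, and miR-96 P10 against P2 was -0.74. With the floor of each sample these were -5.74, -1.78, -1.63, 0.392, -4.98 and -3.26 for miR-182. Here the blanks set at the floor, beside measured partners near 9 or 10 cycles, give the large changes and their large errors by construction. For miR-96 the common floor gave -1.47 in postnatal against embryonic and -1.41 in adult against E12, and neither was called.

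With the global mean, E18 against E12 turned to -1.36 for miR-183 and was called, as was -1.88 for miR-182, and adult against E12 became -1.46 for miR-183. P2 against E18 lost its calls (-1.02 for miR-183, -0.51 for miR-182). Uncalled values moved to -0.35 (E18 against E12) and 0.050 (adult against E18) for miR-96, -0.49 and -0.40 (E16 against E14) for miR-183 and miR-182, -0.20, -0.22 and -0.79 (E18 against E16) for miR-96, miR-183 and miR-182, and 0.19 (adult against P10) for miR-96. The common floor together with the global mean was chosen after seeing the data. It gave, for miR-183, -1.46 (adult against E12), -1.36 (E18 against E12), -0.49, -0.22 and -1.02 in the steps to E16, E18 and P2. For miR-182 it gave -6.84 (adult against E12), -1.84 (postnatal against embryonic), -5.79, -0.51 and -3.79 in the steps to E16, P2 and adult, with an F test p of 0.397. For miR-96 it gave -0.35 (E18 against E12), -0.20, -1.06 and 0.094 in the steps to E18, P10 and adult. Why the references differ was not tested.

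With the ordinary test, miR-182 in adult against E12 (-1.56, adjusted p 0.0502) and miR-183 in the F test (p 0.0555) were not called. With the replicate number as a block, miR-182 in adult against E12 was -1.38 (adjusted p 0.0715) and in E18 against E16 -0.18, and no other call changed. The numbers do not pair the samples: deviations of the replicate 1 samples of different time points correlated between -0.416 and 0.243. With save day as a random block miR-183 in E16 against E14 was -0.094.

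Leaving out each sample in turn gave, for miR-183, -2.66 to -1.62 (P2 against E18), -0.50 to 0.54 (E18 against E12), -0.070 to 0.10 (E16 against E14), -0.090 to 0.95 (adult against P10) and an F test p of 0.0139 to 0.0731. For miR-182 it gave -2.09 to -1.18 (P2 against E18), -1.99 to -1.13 (adult against E12), -0.80 to 0.12 (P10 against P2) and -0.021 to 0.027 (E18 against E16). For miR-96 it gave -1.12 to 0.95, -0.52 to 1.54 and -0.41 to 1.59 in the steps to E14, E16 and E18. Leaving out both samples of a time point left the within-sample differences uncalled. The 2 samples per time point and values read mostly in whole cycles limit the precision.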
